A study of Rattus norvegicus with 4 samples.

Results

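The 10 genes described here encode receptors (Notch1, Notch2, Notch3), ligands (Jag1, Jag2, Dll1, Dll3) and target transcription factors (Hes1, Hes5, Hey1) of the Notch pathway. They were taken by name from a table of 14410 genes, and all 10 were listed. The table comes from RNA-seq of CG4, a rat line of oligodendrocyte progenitors with an otherwise wild-type genotype. Control cells (ctrl) received a CAG-IRES-GFP retrovirus and Phf8oe cells a CAG-Phf8-IRES-GFP retrovirus, which adds Phf8, a histone demethylase gene, under the same broadly active CAG promoter. GFP-positive cells were sorted after 2 days, expanded, and then held in differentiation medium for 3 days before RNA was taken, in 2 biological replicates of each group. All libraries thus come from 1 cell line, and the labels do not say whether the replicates were transduced separately, so p-values measure only the spread between these libraries.

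Notch signalling passes between touching cells. Jagged and Delta ligands on one cell bind Notch receptors on its neighbour, proteases then free the receptor's intracellular part, and this part joins the DNA-binding protein Rbpj in the nucleus and switches on genes of the Hes and Hey families. These encode basic helix-loop-helix (bHLH) repressors. In the oligodendrocyte lineage the pathway is known for holding progenitors back from differentiation.

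Deposited values are normalized counts per gene, which summed to between 39945215 and 41149255 in a library. Judged by the spacing of the values, the shallowest library, Phf8oe replicate 2, held about 28400000 reads and the others 39300000 to 47800000. Phf8 stood at 2026 and 2205 in ctrl and at 5650 and 10796 in Phf8oe, higher in both Phf8oe libraries but with a limma adjusted p of 0.0631. Oligodendrocyte lineage markers were all listed (11 of 11). Their sum was 494931 to 500302 in ctrl and 695520 to 759064 in Phf8oe, and Mbp, Mag and Mog were among those that rose. Mbp alone stood at 184442 and 173338 in ctrl and at 340486 and 308875 in Phf8oe. Nkx2-2, on the same list, was lower in both Phf8oe libraries (11315 and 11281 against 9522 and 8409). Sox10 and Myrf changed little (log2 fold change 0.11 for each). The sum of 4 progenitor markers was 67660 to 67876 in ctrl and 42717 to 52027 in Phf8oe. Most of it came from Ptprz1 (47614 and 47881 against 38066 and 31014) and Pdgfra (18113 and 17240 against 10250 and 9286). Gpr17 overlapped between the groups (2070 and 2479 against 3679 and 2370), and Cspg4 was low (79 and 60 against 32 and 47). The sum of 6 astrocyte markers was 92430 to 93079 in ctrl and 22086 to 32268 in Phf8oe. Among the last, Gfap fell (79141 and 80736 against 10834 and 19613), while the low astrocyte gene Aldh1l1 (9 and 10 against 32 and 44) and Slc1a3 (1063 and 1192 against 1614 and 1692) rose. S100b (12094 and 10964 against 9541 and 10816), Slc1a2 (30 and 58 against 16 and 25) and Gja1 (93 and 119 against 49 and 78) were also lower in both Phf8oe libraries. Their limma adjusted p-values were 0.33, 0.162 and 0.151. Markers of vessels and connective tissue, where Notch genes are also active, were scarce. The defining endothelial markers Pecam1, Cdh5 and Cldn5 and the pericyte markers Pdgfrb and Rgs5 were not among the listed genes. The endothelial markers that were listed (Kdr, Flt1 and Tek) summed to 462 to 553 in ctrl and 326 to 474 in Phf8oe. Myh11 and Col1a1 summed to 641 to 664 in ctrl and 361 in each Phf8oe library. Col1a1 fell (454 and 437 against 121 and 164, limma adjusted p = 0.00361), while Myh11 overlapped between the groups (187 and 227 against 240 and 197). Of 6 neuronal markers the sum was 9518 to 12983 in ctrl and 6142 to 6752 in Phf8oe, of 3 microglial markers 197 to 307 and 204 to 273, and of 5 Schwann and neural crest markers 36664 to 37678 and 34822 to 38807. The part of these shifts in the Notch gene values was not tested, and in bulk RNA fewer cells of a type and less RNA per cell cannot be told apart.

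Hes1 and Hes5 are the classical genes that Rbpj acts on, and the sequences before their start sites are shown because these genes took opposite directions here, with that of Jag1, the member that passed the test, for comparison. The windows are the 250 bases before the annotated start in RefSeq's GRCr8 assembly, a later build than the one behind the counts: chr11:84213046-84213295 on the minus strand for Hes1, chr5:170804327-170804576 on the plus strand for Hes5 and chr3:144894884-144895133 on the minus strand for Jag1. Each is written 5′ to 3′ along the gene, and capitals mark the Rbpj core TGGGAA or its reverse complement TTCCCA.
Hes1: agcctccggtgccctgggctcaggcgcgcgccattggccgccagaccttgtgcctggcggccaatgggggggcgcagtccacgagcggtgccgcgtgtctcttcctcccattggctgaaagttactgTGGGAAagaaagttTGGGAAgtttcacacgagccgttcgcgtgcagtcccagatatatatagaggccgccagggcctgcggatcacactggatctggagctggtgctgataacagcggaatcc
Hes5: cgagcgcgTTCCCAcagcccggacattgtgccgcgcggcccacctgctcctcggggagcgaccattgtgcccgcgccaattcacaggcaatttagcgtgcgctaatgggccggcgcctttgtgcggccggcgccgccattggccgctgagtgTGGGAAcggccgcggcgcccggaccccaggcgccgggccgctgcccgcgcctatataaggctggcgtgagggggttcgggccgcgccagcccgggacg
Jag1: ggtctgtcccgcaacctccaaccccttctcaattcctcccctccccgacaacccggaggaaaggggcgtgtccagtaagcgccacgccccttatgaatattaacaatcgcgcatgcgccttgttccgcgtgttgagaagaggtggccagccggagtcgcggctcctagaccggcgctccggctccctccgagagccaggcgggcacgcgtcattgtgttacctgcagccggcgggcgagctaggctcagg
The Hes1 window holds 2 matches in the same orientation whose first bases lie 14 bases apart, 123 and 109 bases before the start. The Hes5 window holds 2 matches in opposite orientations, 98 and 242 bases before the start, and the Jag1 window holds none. At least 1 match was found in 22.1% of all 33469 promoter windows of this length and at least 2 in 2.71%. CACNAG, the N-box letters that Hes repressors are known to bind, occurred 4 times in the Hes1 window, counting both strands, and not in the Hes5 or Jag1 window. It also occurred 4 times before Notch1 and 1 time before Notch3. At least 1 match was found in 37.2% of all windows and at least 2 in 8.02%, and the share with 4 was not computed. No match of one motif overlapped a match of the other. Of the 10 genes 9 had an entry in the promoter table, Hey1 being the exception, and among the other members the Rbpj core was found only before Dll1, where it occurred 2 times.

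The comparison of Phf8oe with ctrl asks how these genes stand in differentiating cells with a raised level of Phf8. Jag1 fell to 0.52 of its control level (95% interval 0.417 to 0.648) and was the only member past the threshold, a limma p under 0.05 after Benjamini-Hochberg adjustment over all genes. Notch2, Hes1 and Hey1 lay lower and Hes5 higher in both Phf8oe libraries without passing it. One of 10 members called compares with 7.64% of the 14368 genes tested, so the share called is near the background. By direction, 1 member was called lower, against 4.65% of all genes, and 0 were called higher, against 2.99%. The groups did not overlap in 7 members, against 57.6% of all genes; of these 5 were lower, against 28.7% of all genes, and 2 higher, against 28.9%. Before adjustment 5 members had a limma p under 0.05, which held for 26.3% of all genes. The median log2 fold change was -0.28 over the 10 members and 0.0031 over all genes tested.

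**Figure D1:**
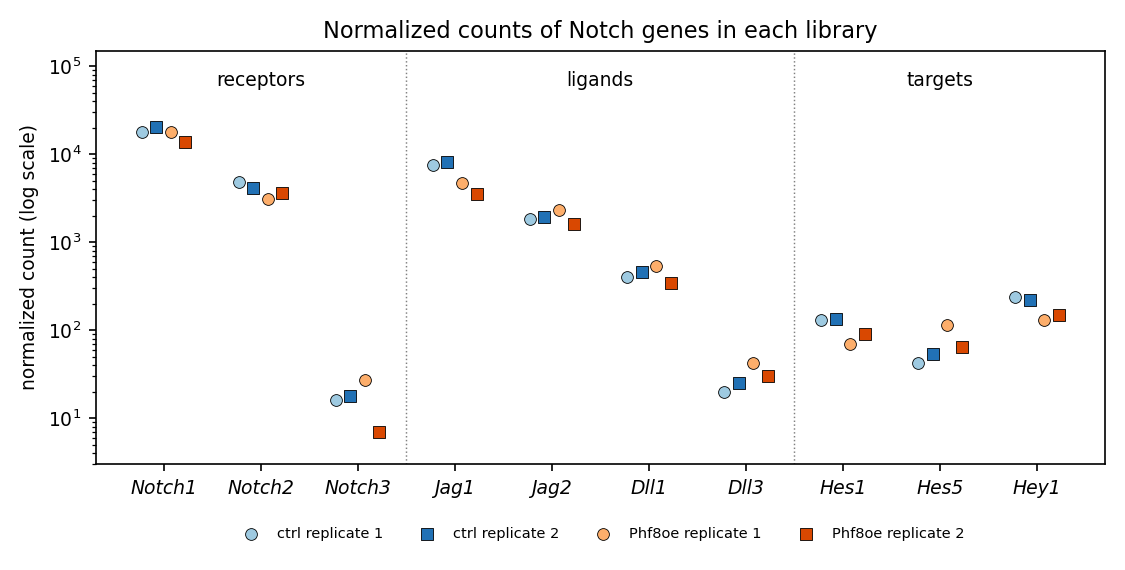
Normalized counts (log scale) of the 10 Notch genes in each of the 4 libraries, grouped as receptors, ligands and targets; each point is 1 library. Jag1 stood at 7444 and 8184 in ctrl and at 4647 and 3543 in Phf8oe, while Hes1 and Hey1 lay below and Hes5 above ctrl in both Phf8oe libraries.

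Among the receptors, Notch1, the receptor best known in oligodendrocyte progenitors, stood at 18043 and 20499 normalized counts in ctrl and at 17741 and 13923 in Phf8oe. Both Phf8oe libraries were lower, but Phf8oe replicate 1 lay only just below ctrl replicate 1. The log2 fold change was -0.29 (SE 0.14, adjusted p = 0.215), with a 95% interval from -0.60 to 0.019. With 1 library left out it ranged from -0.47 to -0.12.

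Notch2, a second receptor of the family, stood at 4839 and 4122 in ctrl and at 3058 and 3589 in Phf8oe. The groups did not overlap, and the replicates differed by the same ratio, 1.17-fold, in each group. The log2 fold change was -0.43 (SE 0.12, adjusted p = 0.0631, interval -0.71 to -0.16), which places the Phf8oe level between 0.613 and 0.898 of ctrl. Notch2 passed the threshold with limma-voom on estimated reads (log2 fold change -0.46, adjusted p = 0.0454). It did not in a limma fit with no trend of the variance with the mean level (adjusted p = 0.219). With 1 library left out the log2 fold change ranged from -0.55 to -0.32.

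Notch3, best known from the muscle and pericyte cells of vessel walls, was near the lower end of the table. It stood at 16 and 18 in ctrl and at 27 and 7 in Phf8oe, the last corresponding to about 5 reads. The Phf8oe libraries lay on either side of ctrl, and the interval of the log2 fold change ran from -1.64 to 1.12. This spans a Phf8oe level of 0.32 to 2.17 of ctrl, so these libraries do not settle its direction. Without Phf8oe replicate 2 the log2 fold change turned from -0.26 to 0.64. No receptor passed the threshold in limma, and Notch2 alone among them had an interval that excluded 0.

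Among the ligands, Jag1, a Jagged ligand known to act on Notch1 of oligodendrocyte progenitors, had normalized counts of 7444 and 8184 in ctrl, and these fell to 4647 and 3543 in Phf8oe. Both Phf8oe libraries were below both ctrl libraries, and the gap between the groups was wider than that within either. The log2 fold change was -0.94 (SE 0.14, adjusted p = 0.00894), or 1.92-fold lower, and Jag1 held rank 187 by p among the genes tested. About 2502 to 8815 reads stood behind each value, so counting error was at most 2.0% in any library. The log2 fold change ranged from -1.14 to -0.75 with 1 library left out. Jag1 no longer passed when ctrl replicate 1 was left out (-1.01, adjusted p = 0.139), when ctrl replicate 2 was (-0.88, adjusted p = 0.0851) or in a fit with no trend of the variance with the mean level (adjusted p = 0.118).

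Jag2, the other Jagged ligand, did not pass the threshold. It stood at 1832 and 1943 in ctrl and at 2348 and 1596 in Phf8oe, so that the Phf8oe libraries enclosed the ctrl libraries (log2 fold change 0.037, SE 0.18, adjusted p = 0.921). Its interval, -0.39 to 0.46, did not reach the value of Jag1. The ratio of Jag1 to Jag2 within a library, which does not depend on scaling between libraries, was 4.06 and 4.21 in ctrl and 1.98 and 2.22 in Phf8oe, a 1.97-fold decrease. These ratios are not corrected for transcript length, so only their change between libraries can be read, and they were chosen after the values were seen and not tested.

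Dll1, a Delta ligand of neural progenitors, stood at 407 and 458 in ctrl and at 533 and 345 in Phf8oe. As with Jag2, the Phf8oe libraries lay on either side of ctrl (log2 fold change -0.0097, SE 0.22, adjusted p = 0.984, interval -0.51 to 0.49), and the sign depended on the scaling: with equal upper quartiles it was 0.033. Dll1 overlaps Fam120b in the GRCr8 assembly, and with no statement on strand, reads in the shared stretch could belong to either gene. Fam120b stood at 1605 and 1828 in ctrl and at 2026 and 1703 in Phf8oe.

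Dll3, a divergent Delta protein known to hold back Notch signalling within its own cell, had low values of 20 and 25 in ctrl and 42 and 30 in Phf8oe. Both Phf8oe libraries were higher, the log2 fold change was 0.64 (SE 0.36, adjusted p = 0.284) and the interval of -0.16 to 1.45 included no change. Counting error alone was 15.1% to 21.7% of each value.

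**Figure D2:**
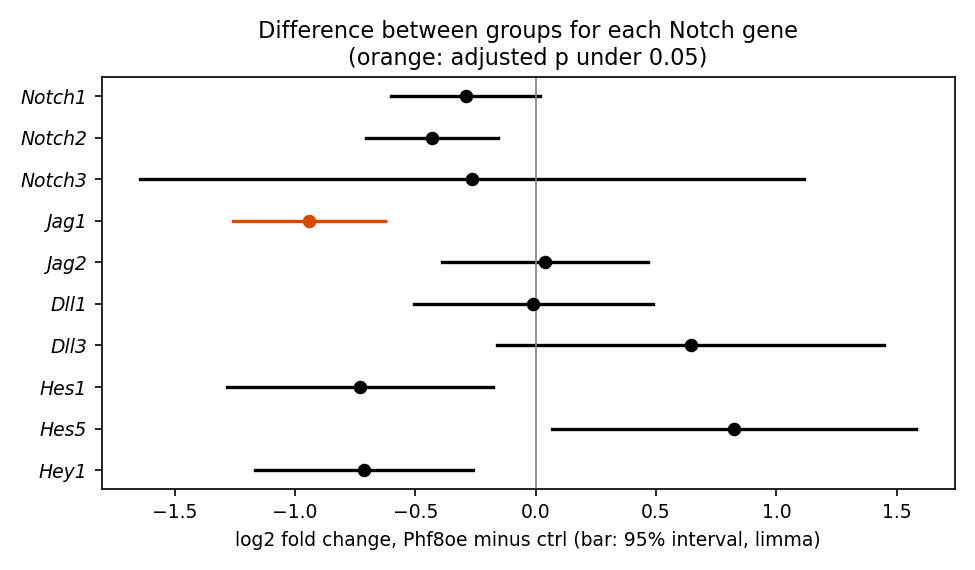
Log2 fold change of each Notch gene, Phf8oe minus ctrl (horizontal axis), as points with 95% intervals from limma over 2 libraries a group. The interval of Jag1, drawn in orange, runs from -1.26 to -0.63, and those of Notch2, Hes1, Hes5 and Hey1 also exclude 0 before adjustment for the 14368 genes tested.

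Among the targets, Hes1, a repressor that keeps neural progenitors from differentiating, stood at 132 and 134 normalized counts in ctrl and at 70 and 91 in Phf8oe. The ctrl libraries were nearly equal and both Phf8oe libraries were lower. The log2 fold change was -0.73 (SE 0.24, adjusted p = 0.0987), with an interval for the Phf8oe level of 0.411 to 0.884 of ctrl. With 1 library left out the log2 fold change ranged from -0.92 to -0.54.

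Hey1, a related repressor that can pair with Hes proteins, stood at 237 and 223 in ctrl and at 130 and 150 in Phf8oe. The groups did not overlap, and the log2 fold change was -0.72 (SE 0.20, adjusted p = 0.0609, interval -1.17 to -0.26). Hey1 passed the threshold with limma-voom (-0.75, adjusted p = 0.0464), but not in a limma fit with no variance trend (adjusted p = 0.115). With 1 library left out the log2 fold change ranged from -0.82 to -0.61. The ratio of Hey1 to Hes1 within a library was 1.80 and 1.66 in ctrl and 1.86 and 1.65 in Phf8oe, so these genes differed between the groups by nearly the same factor. Counting error alone was 8.0% to 12.5% of each Hes1 value and 6.0% to 9.7% of each Hey1 value. Like that of Jag1 to Jag2, this ratio was chosen after the values were seen and not tested.

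Hes5, the Hes gene best known as the Notch effector in oligodendrocyte progenitors, took the opposite direction. It stood at 42 and 54 in ctrl and at 113 and 64 in Phf8oe. Both Phf8oe libraries were higher than both ctrl libraries, yet they differed from each other by 1.77-fold, as much as the groups did. Counting error alone was 9.2% to 14.9% of each value. The log2 fold change was 0.82 (SE 0.33, adjusted p = 0.158, interval 0.067 to 1.58). It was 0.42 without Phf8oe replicate 1 and 1.23 without Phf8oe replicate 2. The ratio of Hes5 to Hes1 within a library was 0.318 and 0.403 in ctrl and 1.61 and 0.703 in Phf8oe, 2.98-fold higher, and was likewise chosen after the values were seen. Hes5 overlaps Pank4 in the GRCr8 assembly, and as with Dll1, reads in the shared stretch could belong to either gene. Pank4 had far more counts, 1816 and 1941 in ctrl and 2188 and 1981 in Phf8oe. It was also higher in both Phf8oe libraries, without passing the threshold in limma (log2 fold change 0.15, adjusted p = 0.419).

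**Figure D3:**
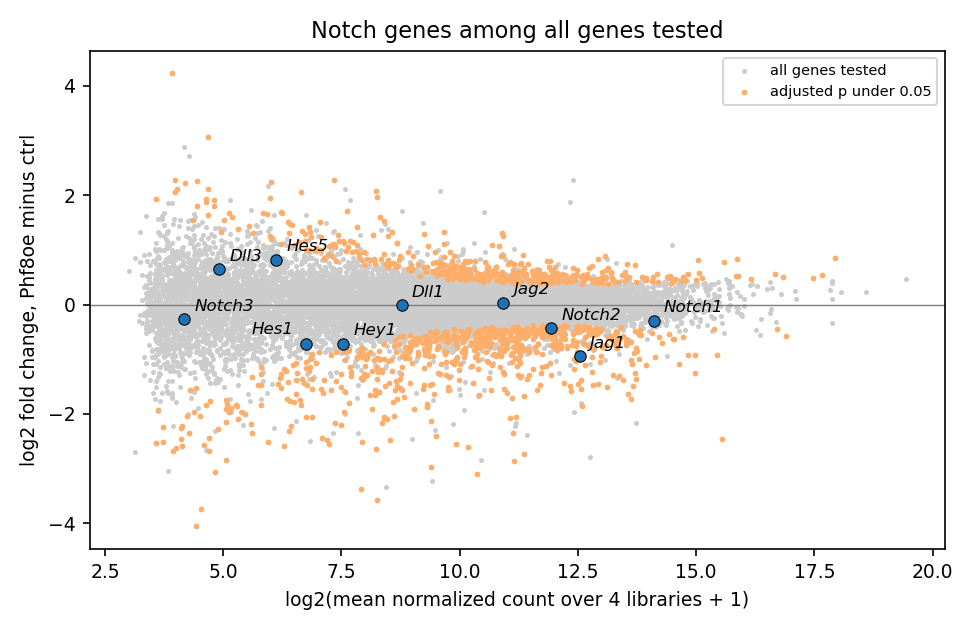
Log2 fold change, Phf8oe minus ctrl (vertical axis), against log2 of the mean normalized count plus 1 (horizontal axis) for the 14368 genes tested; each dot is 1 gene, orange dots have an adjusted p under 0.05 and the Notch genes are blue. Jag1 lies among the orange dots, while Hes1, Hes5 and Hey1 lie at lower counts, where the grey dots scatter more widely.

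The Phf8oe libraries differed from each other more than the ctrl libraries did in 9 of the 10 members, against 56.8% of all genes tested. Phf8oe replicate 2, which had the higher Phf8 value and the fewest reads, was the lower of the pair in 7 members: Notch1, Notch3, Jag1, Jag2, Dll1, Dll3 and Hes5. The share over all genes was not computed for this count, and a link to the Phf8 value or to the number of reads was not tested. Leaving out a library moved the members' fold changes without turning those of Notch1, Notch2, Jag1, Dll3, Hes1, Hes5 and Hey1. With a library of one group gone, the spread is measured in the other group alone, so a call gained or lost then also reflects the smaller or larger spread of the remaining pair.

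**Figure D4:**
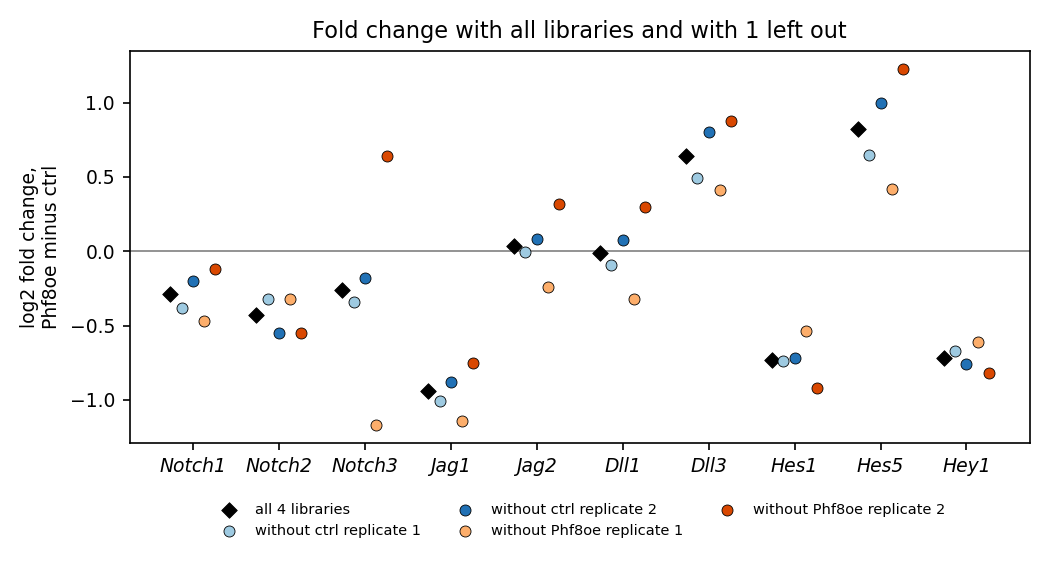
Log2 fold change of each Notch gene, Phf8oe minus ctrl (vertical axis), with all 4 libraries (diamonds) and with 1 library left out (circles). All points of Jag1 lie between -1.14 and -0.75, while those of Notch3, Jag2 and Dll1 fall on both sides of 0.

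The rest of the pathway was described with a list of 75 genes in 9 roles, of which 64 were listed in the table. Of these 64, 1 rose, 3 fell and 60 did not pass the threshold, so that 6.25% were called, near the 7.64% of all genes tested, and their median log2 fold change was -0.067. Groups did not overlap in 37 of them, against 57.6% of all genes; 24 were lower, against 28.7%, and 13 higher, against 28.9%.

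Hes6, a bHLH protein known to counteract Hes1, rose from 1190 and 1251 to 1925 and 1607 (0.53 on the log2 scale, SE 0.12, adjusted p = 0.0357). Bhlhe41, a repressor related to the Hes family, fell from 888 and 1277 to 535 and 639 (-0.86, SE 0.19, adjusted p = 0.0367). Maml2, a Mastermind coactivator of the nuclear Notch complex, fell from 2160 and 2023 to 1431 and 1608 (-0.46, SE 0.11, adjusted p = 0.0397). It overlaps Ccdc82 in the GRCr8 assembly, and as with Dll1, reads in the shared stretch could belong to either gene. Ccdc82 stood at 513 and 536 in ctrl and at 349 and 419 in Phf8oe. Its log2 fold change, -0.45, was near that of Maml2, without passing the threshold. Itch, a ubiquitin ligase known to act on Notch, fell from 1856 and 1821 to 1347 and 1383 (-0.43, SE 0.10, adjusted p = 0.0404). All 4 adjusted p-values lie close to the threshold: without robust variance moderation they were 0.053 to 0.0598, none of the 4 passing, and none passed without either ctrl library. Maml2 and Itch also missed it with equal upper quartiles (0.0515 and 0.0536) and, together with Hes6, with the replicate number as a block (0.0894 to 0.103). Maml2 and Hes6 missed it without Phf8oe replicate 1 as well (0.0591 and 0.0632).

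No role outside these had a member past the threshold in limma. Over all 14368 genes tested, 7128 had a fold change below 0 and 26.3% an unadjusted p under 0.05, and the counts for these small roles are given as descriptions only. Of 8 measured proteases, which cut the receptor, 7 had a fold change below 0 (median log2 fold change -0.20), and 3 had an unadjusted p under 0.05. Adam17 stood at 13585 and 13505 in ctrl and at 11798 and 12797 in Phf8oe, and Ncstn, a subunit of gamma-secretase, at 7453 and 6461 against 5945 and 5624. Of 7 measured genes of the nuclear complex, Maml2 included, 6 had a fold change below 0, and the 10 receptor regulators, Itch included, had a median of -0.065. Among 13 corepressors the median was -0.074, with Ctbp1 at 0.12, and 3 had an unadjusted p under 0.05. The glycosyltransferases, which add sugars to the receptor, had a median of 0.087, with Poglut1 at -0.063 and Pofut1 at 0.087 (2 of 5 at an unadjusted p under 0.05). The genes of ligand endocytosis had a median of 0.025, with Mib1 at -0.018 and Mib2 at 0.11 (1 of 4).

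Among relatives of the ligands and receptors, Cntn1, a contactin known as a Notch ligand that favours oligodendrocyte maturation, stood at 35798 and 31438 in ctrl and at 48407 and 37112 in Phf8oe (log2 fold change 0.34, SE 0.14, adjusted p = 0.182). With 1 library left out it ranged from 0.15 to 0.53, passing without Phf8oe replicate 2 (adjusted p = 0.00689). Dlk1, a Delta-like protein that lacks the usual receptor-binding domain, stood at 1617 and 2429 against 460 and 834. Its log2 fold change of -1.68 (SE 0.37, adjusted p = 0.0795) was larger than that of Jag1, but its replicates also lay further apart. It passed the threshold without robust moderation (adjusted p = 0.031), with the replicate number as a block (0.00796) and without either Phf8oe library (0.0342 and 0.00237). Of this group of 8, 2 had an unadjusted p under 0.05.

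All 5 measured bHLH factors that Hes proteins are known to counteract had a fold change above 0, 2 of them with an unadjusted p under 0.05, and no call. Olig2, a transcription factor that defines the lineage, stood at 15146 and 16100 in ctrl and at 22151 and 18194 in Phf8oe (log2 fold change 0.36, SE 0.12, adjusted p = 0.0977), and passed without Phf8oe replicate 2 (0.50, adjusted p = 0.0077). Olig1 stood at 14079 and 14779 against 18093 and 15777 (0.23, adjusted p = 0.223). Further genes were picked after their values were seen. Neurog2, a proneural factor, stood at 15 and 42 against 88 and 57, and the glycosyltransferase gene Mfng at 59 and 123 against 307 and 150. Nrarp, a known Notch target that feeds back on the pathway, stood at 336 and 585 against 672 and 647. Their adjusted p-values were 0.119, 0.16 and 0.215. Among genes with lower values, Crebbp, Adam10, Neurl1 and Tle3 lay nearer the threshold, with adjusted p-values of 0.0717, 0.078, 0.0841 and 0.0855 and log2 fold changes of -0.36, -0.41, -0.45 and -0.32.

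**Figure D5:**
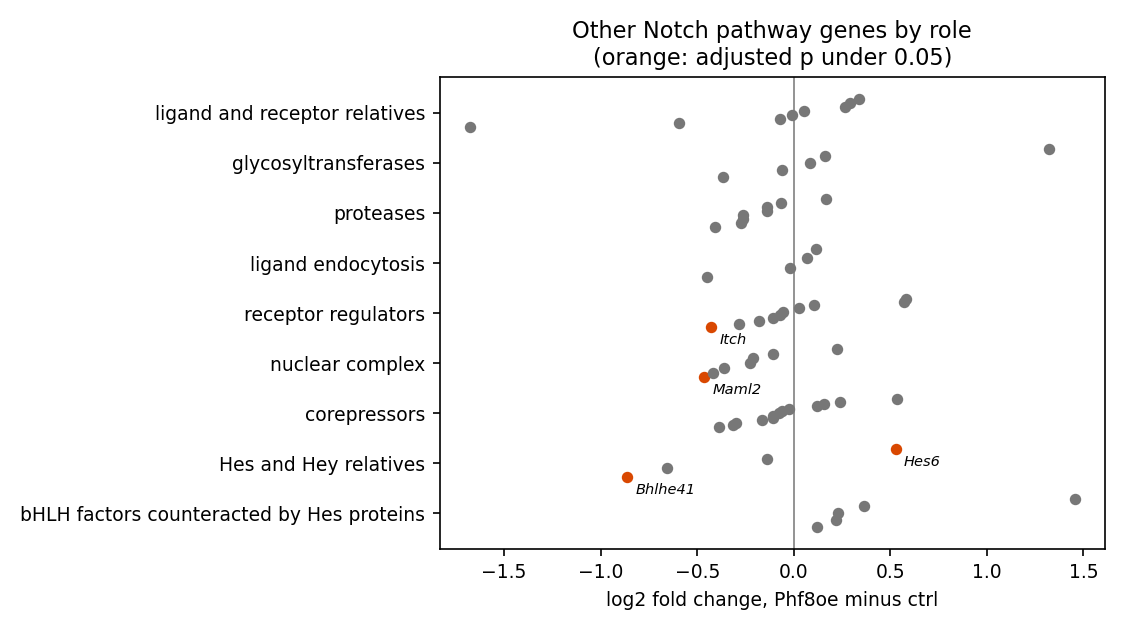
Log2 fold change, Phf8oe minus ctrl (horizontal axis), of 64 other Notch pathway genes, 1 point a gene, in 9 roles; orange points have an adjusted p under 0.05. The 4 named genes, Itch, Maml2, Hes6 and Bhlhe41, are the calls, and the outlying grey points are Dlk1 at -1.68, Mfng at 1.32 and Neurog2 at 1.45.

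Over the 4 libraries, the genes whose pattern lay nearest to that of Jag1 were Angpt1, Tmem63a and Scube3. Their log2 values, each centred on the gene's own mean, differed from those of Jag1 by a root mean square of 0.042, 0.049 and 0.057, the smallest among 11262 genes with a mean of at least 50. Angpt1, a ligand of the receptor Tek, stood at 122 and 125 in ctrl and at 74 and 54 in Phf8oe, Tmem63a, an ion channel gene, at 607 and 610 against 359 and 283, and Scube3 at 316 and 326 against 180 and 150. With 4 points, such likeness is a description only.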

How the data were processed

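RNA from 2 ctrl and 2 Phf8oe libraries of CG4 cells was sequenced in paired reads of 150 bases, as the labels state. The submitters' processing notes name bcl2fastq 2.20, Trimmomatic 0.36, STAR 2.5.2b, DESeq2 and the builds rn6 and Rnor_6.0, but no gene counter, annotation, strand setting or filter on low genes. Each deposited value is a signal proportional to reads, a count divided by a size factor and rounded to a whole number, although the table is labelled as raw. The spacing of the values showed this: Phf8oe replicate 2 lacked all 85 of the whole numbers from 10 upward that such scaling would skip in the range examined, and 1 read was worth 0.844 (ctrl replicate 1), 1.02, 0.955 and 1.42 (Phf8oe replicate 2). Reads per gene were estimated by dividing by these factors; counting error is the square root of that number and covers sampling only. Sample files equalled their columns of the series table.

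The filter was a value of 10 or more in 2 or more libraries (14368 of 14410 genes, all 10 members). Log2(value + 1) was tested with limma 3.58.1 in R 4.3.3, with group as the only term, a variance trend and robust moderation (2 residual degrees of freedom, median prior 6.99). P-values were two-sided and adjusted by Benjamini-Hochberg over all genes, with a threshold of 0.05. Fold changes of low genes are thus understated. The procedure was tested on simulated data. Group values rest on 2 libraries, and 95% intervals are not adjusted for the number of genes. The members and lists were chosen with earlier results of these data known. Named were all members, pathway genes past the threshold, in roles with none the 2 most abundant, and the 3 genes nearest in pattern to each called member (symbols such as LOC or RGD numbers left out). A gene that this rule takes is not reported here. Of 75 pathway symbols, 62 were found directly and 2 through RefSeq synonyms; the other 11 were not analysed here. RefSeq's GRCr8 tables gave overlaps and promoter windows. Alternatives covered pseudocounts, filters, scalings, moderation, limma-voom, a replicate block and leaving out each library. Python 3.11.15 was used.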

Additional observations from a re-analysis of the deposited data

How the results depend on the processing

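Over 16 alternatives the members' fold changes were recomputed 158 times; 151 kept their direction, and 139 kept their side of the threshold as well. Direction turned 7 times, in Notch3, Jag2 and Dll1: the log2 fold change of Dll1 was 0.033 with equal upper quartiles and 0.014 with limma-voom, and with 1 library left out it ranged from -0.32 to 0.30, that of Jag2 from -0.24 to 0.32 and that of Notch3 from -1.17 to 0.64. Among other pathway genes, Mib1 turned to 0.024 with equal upper quartiles, and with 1 library left out ranges crossed 0 for Mib1 (-0.068 to 0.032), Mib2 (-0.0031 to 0.23), Pofut1 (-0.036 to 0.21) and Poglut1 (-0.16 to 0.0304).

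The count of all genes past the threshold was 1098 (430 higher, 668 lower), and with equal upper quartiles 614 were higher and 598 lower. With no variance trend limma called 0 genes, 0 members and 0 other pathway genes, although 3133, 5 and 10 had an unadjusted p under 0.05, and limma-voom called 1381, 3 and 4. The members called by limma-voom were Notch2, Jag1 and Hey1. Other pathway genes called numbered 2 with equal upper quartiles and 1 without robust moderation. With 1 library left out the counts ranged from 20 to 2145 genes, 0 to 5 members and 0 to 14 other pathway genes. Without ctrl replicate 1 they were 20, 0 and 1, without ctrl replicate 2 190, 0 and 0, without Phf8oe replicate 1 1848, 2 and 5, and without Phf8oe replicate 2 2145, 5 and 14. Where no member was called, 2 and 3 had an unadjusted p under 0.05, and 15 other pathway genes did without ctrl replicate 2. The spread is then measured in the intact group alone; other causes were not tested.

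Same-numbered libraries did not deviate together (correlation -0.126), so the numbers were not treated as pairs. With the replicate number as a block 373 genes, 1 member (Jag1) and 2 other pathway genes were called. A crossed pairing, added after seeing the data, called 2354, 3 and 12. Depth limits Notch3 and Dll3 most, which rest on about 5 to 44 reads a library.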
